A study of Mus musculus with 9 samples.

Results

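The 9 natural killer receptor genes Ncr1, Klrd1, Klrk1, Klrc1, Klrc2, Klrg1, Klrb1c, Klre1 and Cd244 were followed in mouse gastrocnemius, a fast-twitch calf muscle, after intramuscular injection. They were taken by symbol from 55401 genes counted in 9 RNA-seq libraries, and all 9 were among the 18514 genes with enough counts to be tested. Cd244 was counted under its current symbol Cd244a. The libraries form 3 groups of 3, all from wild-type FVB mice 2 to 3 months old, with muscles collected 7 weeks after injection. One group received AAV-GFP-MBNL1∆, an adeno-associated virus (AAV) vector named for GFP and a modified MBNL1, an RNA-binding splicing regulator that the study presents as a decoy for expanded CUG repeats. Another received AAV-GFP, the vector named for GFP alone, and the last received saline. With only the AAV-GFP-MBNL1∆ and saline libraries, 5 of the members had enough counts to be tested. Klrc2, Klrg1, Klrb1c and Klre1 did not, and were tested through the AAV-GFP libraries, where their means were highest. Counts and medians over the 9 members include them. None of the other 5 reached the filter in all 3 saline libraries either, so every member was tested only through vector libraries. Calls, separations and medians against saline are subject to that selection. The sources used here give neither the capsid, promoter and dose of the vectors nor whether each library comes from 1 animal, and p-values here speak only of library-to-library spread, which may be technical.

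Natural killer cells are lymphocytes that kill virus-infected or stressed cells according to the balance of activating and inhibitory receptors on their surface. Ncr1 (NKp46) is an immunoglobulin-like activating receptor, and most of the other members are C-type lectin-like proteins encoded side by side in the natural killer gene complex of mouse chromosome 6. Several of them, among them Klrk1, Klrd1, Klrc1, Klrg1 and Cd244, are also made by activated CD8 T cells. In whole-muscle RNA, fewer cells of a type and less RNA per cell cannot be told apart.

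Promoter windows of RefSeq (GRCm38.p6, 250 bases before to 50 bases after a transcription start) were matched by symbol for 7 of the 9 members, with 10 windows in all. They were searched on both strands for GGTGTGA, the core bound by T-box factors such as T-bet (Tbx21) and Eomes, and for TGTGGT, the core bound by RUNX factors such as Runx3, since these factors direct natural killer and cytotoxic T cell genes. No member window held GGTGTGA, which 4.6% of all 27025 genes with a window held. TGTGGT or its complement occurred in 6 of the 7 members (Ncr1, Klrk1, Klrc1, Klrc2, Klrb1c and Klre1, not Cd244) and in 8 of the 10 windows, against 18.9% of all genes and 16.8% of 32851 windows. The windows of Ncr1 overlap each other, as do those of Klrc2 and of Klre1. The 10 windows are therefore not independent, and the matches of Ncr1 and of Klrc2 are counted in more than 1 window. Apart from Ncr1, the 6 members with a match are related genes of the natural killer gene complex, so the genes are not independent either. A match describes these letters and is neither a shown site nor a cause. The windows of the 3 members that passed a test below and have a window, and of Klrc2, a close paralog of Klrc1, are printed 5′ to 3′ on the strand of the gene, with TGTGGT or its complement ACCACA in capitals. The Ncr1 window is chr7:4337465-4337764 on the plus strand, and the other 3 are on the minus strand, at chr6:129623815-129624114 for Klrk1, chr6:129678924-129679223 for Klrc1 and chr6:129660547-129660846 for Klrc2.
Ncr1: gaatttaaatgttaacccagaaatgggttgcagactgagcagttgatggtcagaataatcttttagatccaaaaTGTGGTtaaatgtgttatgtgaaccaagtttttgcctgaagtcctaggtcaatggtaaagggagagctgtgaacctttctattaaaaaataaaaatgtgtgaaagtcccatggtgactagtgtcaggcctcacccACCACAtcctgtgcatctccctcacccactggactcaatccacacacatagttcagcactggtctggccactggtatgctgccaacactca
Klrk1: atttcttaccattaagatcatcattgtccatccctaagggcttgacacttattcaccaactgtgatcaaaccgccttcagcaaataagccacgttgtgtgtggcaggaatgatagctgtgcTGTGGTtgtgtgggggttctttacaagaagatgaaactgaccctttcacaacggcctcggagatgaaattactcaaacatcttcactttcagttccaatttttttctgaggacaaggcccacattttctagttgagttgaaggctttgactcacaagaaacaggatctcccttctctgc
Klrc1: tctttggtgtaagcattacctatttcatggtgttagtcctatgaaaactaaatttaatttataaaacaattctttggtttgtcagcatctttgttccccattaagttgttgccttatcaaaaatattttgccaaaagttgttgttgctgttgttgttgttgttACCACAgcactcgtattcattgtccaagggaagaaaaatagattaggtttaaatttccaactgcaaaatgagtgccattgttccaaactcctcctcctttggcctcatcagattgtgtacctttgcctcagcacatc
Klrc2: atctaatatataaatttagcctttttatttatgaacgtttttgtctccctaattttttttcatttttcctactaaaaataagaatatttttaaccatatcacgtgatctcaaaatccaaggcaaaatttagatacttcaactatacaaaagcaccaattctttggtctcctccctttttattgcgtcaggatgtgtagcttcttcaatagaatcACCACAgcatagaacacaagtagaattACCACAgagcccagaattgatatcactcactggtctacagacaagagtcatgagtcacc
The match lay 129 bases before the start in Klrk1 and 87 bases before it in Klrc1. Ncr1 held matches 176 and 41 bases before the start, and Klrc2 held 1 at 36 and 1 at 9 bases before it.

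The libraries held 44603618 to 76970849 counts on genes. Tissue identity was that of skeletal muscle, with Acta1, the actin of muscle fibres, at 33560 to 39400 CPM (counts scaled to the library size) in AAV-GFP-MBNL1∆ muscles, 16850 to 24680 CPM in AAV-GFP muscles and 26990 to 29050 CPM in saline muscles. Xist, transcribed from the inactive X chromosome of females, was at 0.0182 to 0.0902 CPM in AAV-GFP-MBNL1∆ libraries, against 106 to 136 CPM with AAV-GFP and 105 to 130 CPM with saline. The Y-linked Ddx3y was at 82.6 to 84.5 CPM with AAV-GFP-MBNL1∆, 0.487 to 2.58 CPM with AAV-GFP and 0.409 to 0.693 CPM with saline. The AAV-GFP-MBNL1∆ mice thus read as male and the others as female, and sex and the MBNL1∆ vector cannot be told apart in any comparison with AAV-GFP-MBNL1∆. Mbnl1 itself was counted at 575 to 711 CPM with AAV-GFP-MBNL1∆, 356 to 491 CPM with AAV-GFP and 445 to 593 CPM with saline, and whether vector reads fall on it was not tested. The AAV-GFP libraries stand apart from each other: replicate 2 was the highest of the 9 and replicate 3 the lowest of its group for all 9 receptors, so results are also given without a library where it decides them.

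Receptor transcripts were scarce in all muscles and most abundant after AAV-GFP. The CPM of the 9 genes summed to 5.23, 5.64 and 2.11 in the AAV-GFP-MBNL1∆ libraries, 14.4, 45.3 and 4.01 in the AAV-GFP libraries, and 0.779, 0.651 and 0.52 in the saline libraries. These sums averaged 4.33 ± 1.93 CPM with AAV-GFP-MBNL1∆, 21.2 ± 21.5 CPM with AAV-GFP and 0.65 ± 0.13 CPM with saline (SD, n = 3 each). Both vector groups lay wholly above saline, and the 2 vector groups overlapped, since AAV-GFP replicate 3 fell below 2 of the AAV-GFP-MBNL1∆ libraries.

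**Figure D1:**
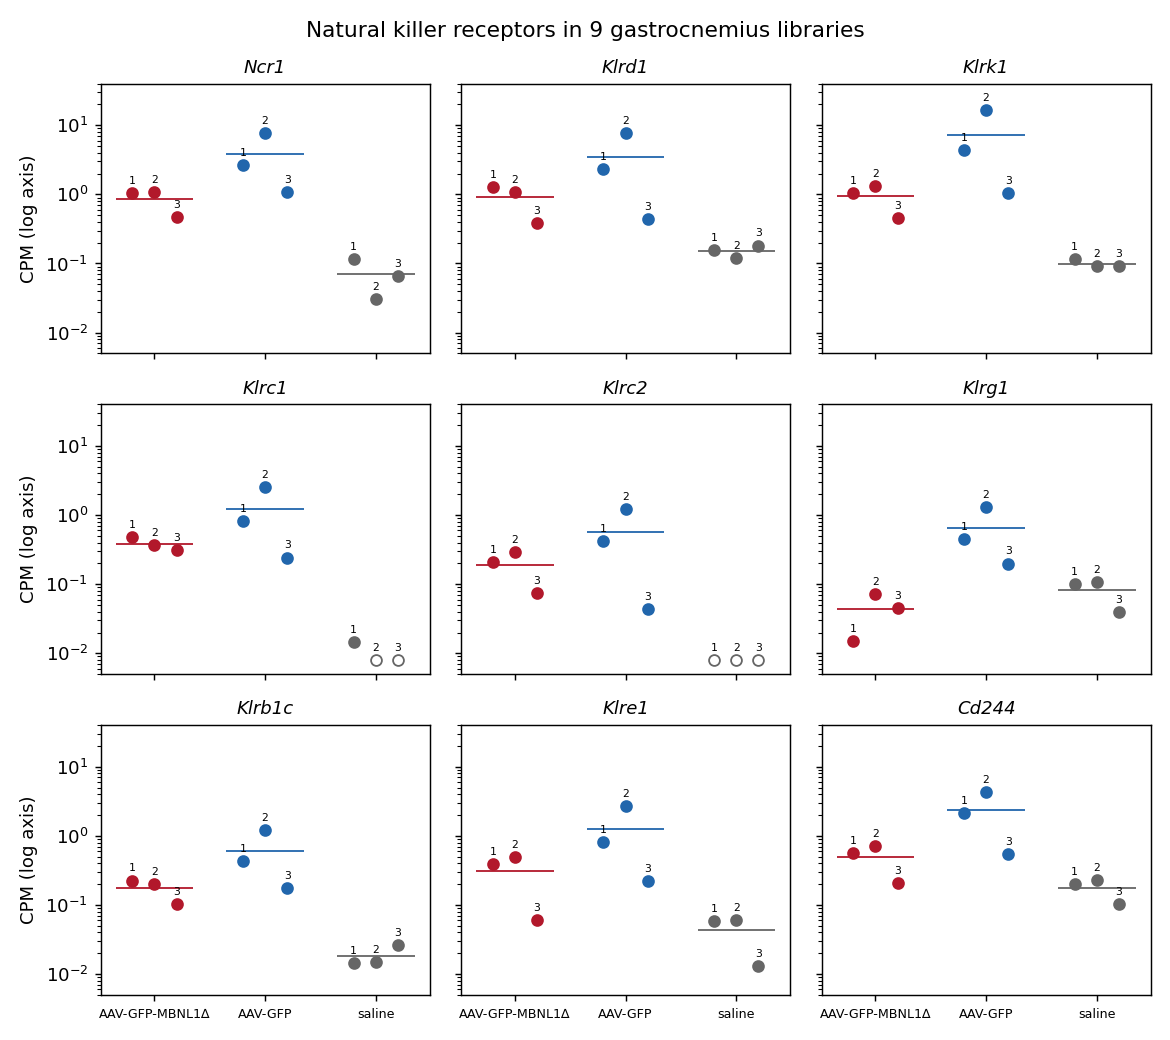
CPM of each natural killer receptor in each library on a log axis, with replicate numbers above the points, group means as lines and open circles at the bottom for libraries with no read. AAV-GFP replicate 2 is the highest point in all 9 panels, and Klrg1 is the only panel in which the AAV-GFP-MBNL1∆ points lie wholly below the AAV-GFP points.

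Against saline, AAV-GFP-MBNL1∆ muscles had higher Ncr1 and Klrc1, 2 of the 9 members, at an adjusted p under 0.05 in edgeR's quasi-likelihood test, the threshold used throughout. Among all tested genes 4.76% were called higher in that comparison. In 6 members every AAV-GFP-MBNL1∆ library lay above every saline library, as in 22.7% of all tested genes. The exceptions were Klrg1, Klre1 and Cd244. The median log2 fold change of the members was 3.10, against 0.02 over all tested genes.

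Set against saline, AAV-GFP muscles had every library above every saline library in all 9 members, as in 14.7% of all tested genes. None of them passed edgeR's adjusted threshold, with adjusted p of 0.0841 at the lowest, and 0% of all tested genes were called higher in this comparison. At an unadjusted p under 0.05, all 9 members were higher, as were 15.6% of all tested genes. DESeq2 called all 9, beside 9.21% of all tested genes, and limma-voom called 0 members and 0% of all tested genes. The members' median log2 fold change was 4.93, against -0.01 over all tested genes. Without AAV-GFP replicate 3, edgeR called all 9 members, beside 17.1% of all genes tested then.

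Between the vectors, Klrk1 and Klrg1 were lower with AAV-GFP-MBNL1∆ than with AAV-GFP, 2 of the 9 members, where 10.3% of all tested genes were called lower. Only for Klrg1 did the libraries not overlap, against 19.2% of all tested genes with every AAV-GFP-MBNL1∆ library below every AAV-GFP library. All 9 fitted differences were negative, with a median log2 fold change of -2.02 against -0.06 over all tested genes. The 3 comparisons share libraries, so their values are not independent of each other.

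**Figure D2:**
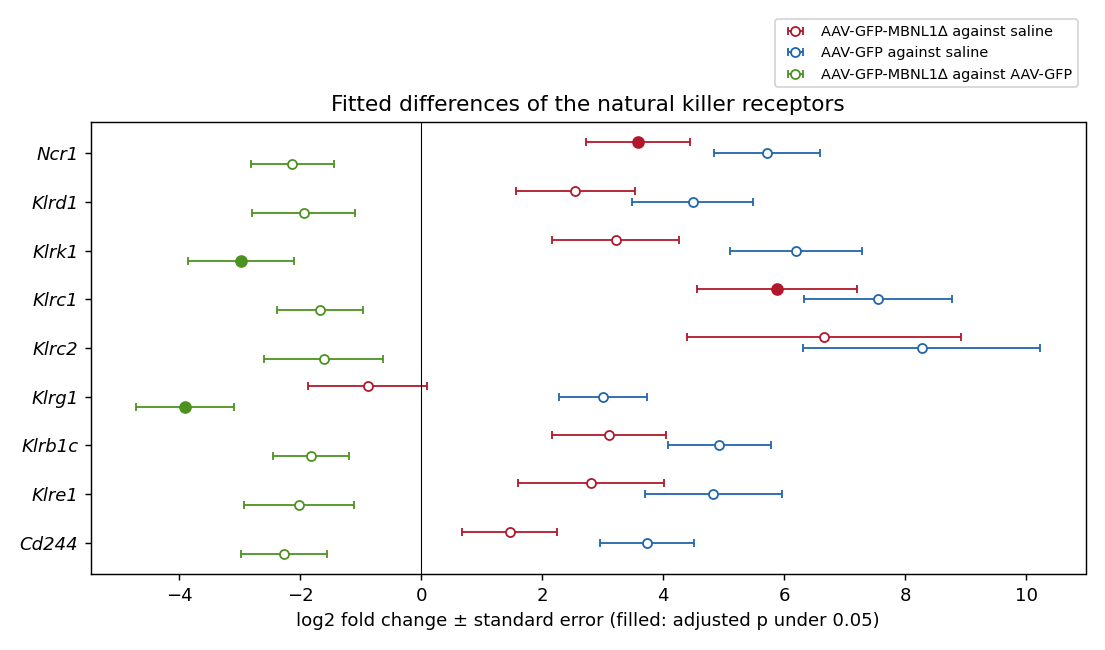
Fitted log2 fold changes of the 9 receptors with standard errors from edgeR, for AAV-GFP-MBNL1∆ against saline (red), AAV-GFP against saline (blue) and AAV-GFP-MBNL1∆ against AAV-GFP (green). Filled points passed an adjusted p of 0.05: Ncr1 and Klrc1 in red, Klrk1 and Klrg1 in green; the Klrc1 and Klrc2 values against saline rest on 1 and 0 saline reads.

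Among the activating receptors, Ncr1 recognises ligands of viruses and tumours and is among the most specific markers of natural killer cells. It lies at chr7:4337724-4345164 on the plus strand (coordinates here and below are GRCm38, the assembly of mm10, with GENCODE M21 genes). Ncr1 was at 1.05, 1.09 and 0.464 CPM with AAV-GFP-MBNL1∆, 2.64, 7.61 and 1.08 CPM with AAV-GFP and 0.115, 0.0303 and 0.065 CPM with saline. Every vector library exceeded every saline library, and AAV-GFP replicate 3 fell between the 2 higher AAV-GFP-MBNL1∆ libraries. Ncr1 rose by a log2 fold change of 3.58 ± 0.86 (standard error) in AAV-GFP-MBNL1∆ muscles relative to saline, with an edgeR adjusted p of 0.0382. The AAV-GFP difference from saline was 5.71 ± 0.87 with an adjusted p of 0.0841, and that between AAV-GFP-MBNL1∆ and AAV-GFP was -2.13 ± 0.68 with an adjusted p of 0.0573. With 1 library left out, the call for Ncr1 against saline held in 2 of 9 refits, those without AAV-GFP replicate 2 or 3, and its adjusted p ran between 0.00363 and 0.137.

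Klrk1 (NKG2D) is an activating receptor for stress-induced ligands such as Raet1 proteins and Ulbp1, and signals through the adaptors Hcst and Tyrobp. Its gene spans chr6:129610323-129623864 on the minus strand. Klrk1 was at 1.04, 1.33 and 0.449 CPM in AAV-GFP-MBNL1∆ muscles, 4.37, 16.6 and 1.04 CPM in AAV-GFP muscles and 0.115, 0.0908 and 0.091 CPM in saline muscles. Saline was lowest throughout, while AAV-GFP replicate 3 lay among the AAV-GFP-MBNL1∆ libraries. Klrk1 fell by 2.98 ± 0.88 on the log2 scale with AAV-GFP-MBNL1∆ relative to AAV-GFP, with an edgeR adjusted p of 0.0462. This call held in 1 of 9 refits with a library left out, the one without AAV-GFP replicate 3, and the adjusted p ran between 0.00414 and 0.147. Relative to saline its log2 fold change was 3.21 ± 1.05 with AAV-GFP-MBNL1∆ and 6.19 ± 1.08 with AAV-GFP, neither past the threshold (adjusted p 0.0955 and 0.0841).

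Klrc2 (NKG2C) pairs with Klrd1 into an activating receptor and lies at chr6:129647496-129660689 on the minus strand. It had no read in any saline library, and stood at 0.21, 0.291 and 0.0749 CPM with AAV-GFP-MBNL1∆ and 0.415, 1.22 and 0.0443 CPM with AAV-GFP. Against a floor of 3 counts over the saline group (0.0141 CPM), Klrc2 was at least 13.1-fold higher with AAV-GFP-MBNL1∆ and at least 46.9-fold higher with AAV-GFP, bounds on pooled counts that cover counting error alone. AAV-GFP replicate 2 holds 98 of the 128 AAV-GFP reads, and without it the bound for AAV-GFP is 18.8-fold. Neither difference passed the edgeR threshold, with an adjusted p of 0.127 for AAV-GFP-MBNL1∆ and 0.1003 for AAV-GFP.

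Klrb1c (NK1.1) is an activating receptor long used to define natural killer cells in C57BL/6 mice, at chr6:128778485-128789215 on the minus strand. It was at 0.226, 0.2 and 0.105 CPM with AAV-GFP-MBNL1∆, 0.43, 1.22 and 0.177 CPM with AAV-GFP and 0.0144, 0.0151 and 0.026 CPM with saline. All vector libraries exceeded all saline libraries, which held 4 reads in total. The log2 fold change against saline was 3.10 ± 0.94 with AAV-GFP-MBNL1∆ (adjusted p 0.0739) and 4.93 ± 0.85 with AAV-GFP (adjusted p 0.0841). Klrb1c shares 413 of its 2961 exon bases with Gm44511 on the same strand, and reads in that stretch cannot be assigned to either gene.

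Klrd1 (CD94) is the shared partner that carries Klrc1 and Klrc2 to the surface, encoded at chr6:129591782-129598775 on the plus strand. It was at 1.26, 1.09 and 0.389 CPM with AAV-GFP-MBNL1∆, 2.3, 7.71 and 0.443 CPM with AAV-GFP and 0.159, 0.121 and 0.182 CPM with saline. The saline libraries were lowest, and AAV-GFP replicate 3 was near the lowest AAV-GFP-MBNL1∆ library. Its log2 fold change against saline was 2.55 ± 0.98 with AAV-GFP-MBNL1∆ (adjusted p 0.145) and 4.49 ± 0.9995 with AAV-GFP (adjusted p 0.0841).

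Klre1, the immediate neighbour of Klrd1 at chr6:129577905-129585827 on the plus strand, forms receptors with Klri1 or Klri2. The Klre1 level was 0.391, 0.491 and 0.0599 CPM with AAV-GFP-MBNL1∆, 0.815, 2.69 and 0.221 CPM with AAV-GFP and 0.0577, 0.0606 and 0.013 CPM with saline. AAV-GFP-MBNL1∆ replicate 3 was within the saline range, whereas all AAV-GFP libraries were above it. The log2 fold changes against saline were 2.81 ± 1.20 (adjusted p 0.184) with AAV-GFP-MBNL1∆ and 4.83 ± 1.14 (adjusted p 0.0855) with AAV-GFP.

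Of the inhibitory receptors, Klrc1 (NKG2A) binds the non-classical MHC molecule H2-T23 (Qa-1) together with Klrd1, and lies at chr6:129666015-129678973 on the minus strand. It was at 0.481, 0.364 and 0.314 CPM with AAV-GFP-MBNL1∆, 0.815, 2.58 and 0.243 CPM with AAV-GFP and 0.0144, 0 and 0 CPM with saline. The AAV-GFP-MBNL1∆ libraries were close together and all above AAV-GFP replicate 3, and the saline group held 1 read. Pooled over libraries, Klrc1 was 82.3 times its saline level with AAV-GFP-MBNL1∆ (exact 95% interval 14.3 to 3295) and 300.4 times with AAV-GFP (53.5 to 11910), intervals of counting error alone. AAV-GFP replicate 2 holds 207 of the 273 AAV-GFP reads of Klrc1, and without it the AAV-GFP ratio is 124 (21.6 to 4986). Klrc1 rose in AAV-GFP-MBNL1∆ muscles relative to saline, with a fitted log2 fold change of 5.88 ± 1.32, which depends on the prior count, and an edgeR adjusted p of 0.0303. The call held in 3 of 9 refits with a library left out, each without an AAV-GFP library, and the adjusted p ran between 0.00128 and 0.11.

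Klrg1, an inhibitory receptor for cadherins that marks mature natural killer cells and terminally differentiated effector T cells, had the profile farthest from the mean of the members. Its gene is at chr6:122270596-122282882 on the minus strand, several megabases from the rest of the cluster. The Klrg1 level was 0.015, 0.0727 and 0.0449 CPM with AAV-GFP-MBNL1∆, 0.445, 1.3 and 0.199 CPM with AAV-GFP and 0.101, 0.106 and 0.039 CPM with saline. AAV-GFP-MBNL1∆ overlapped saline and lay wholly below AAV-GFP, with 8 reads in total against 143 with AAV-GFP and 17 with saline. The gene had enough counts to be tested only through its AAV-GFP libraries. Klrg1 fell by 3.90 ± 0.81 on the log2 scale with AAV-GFP-MBNL1∆ relative to AAV-GFP, with an edgeR adjusted p of 0.016. The call held in 7 of 9 refits with a library left out, with adjusted p of 0.00346 to 0.075, and was lost without AAV-GFP-MBNL1∆ replicate 1 or 3. Relative to saline, the log2 fold change was -0.89 ± 0.98 with AAV-GFP-MBNL1∆ (adjusted p 0.615) and 3.01 ± 0.73 with AAV-GFP (adjusted p 0.0856). Even the lowest AAV-GFP library, replicate 3, was at 4.5 times the AAV-GFP-MBNL1∆ mean for Klrg1, against 0.23 to 1.25 times for the other 8 members.

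Cd244 (2B4), a receptor of the SLAM family that binds CD48 and can activate or inhibit depending on its adaptors, lies at chr1:171559193-171609746 on the plus strand. It was at 0.556, 0.709 and 0.21 CPM with AAV-GFP-MBNL1∆, 2.13, 4.34 and 0.553 CPM with AAV-GFP and 0.202, 0.227 and 0.104 CPM with saline. AAV-GFP-MBNL1∆ replicate 3 was within the saline range. The log2 fold change against saline was 1.46 ± 0.78 with AAV-GFP-MBNL1∆ (adjusted p 0.282) and 3.73 ± 0.78 with AAV-GFP (adjusted p 0.0841), and that between the vectors was -2.27 ± 0.71 (adjusted p 0.0541).

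For the members not yet given, the log2 fold change of AAV-GFP-MBNL1∆ relative to AAV-GFP was -1.94 for Klrd1, -1.67 for Klrc1, -1.61 for Klrc2, -1.82 for Klrb1c and -2.02 for Klre1, with edgeR adjusted p of 0.0657 to 0.266. Without AAV-GFP replicate 3, all 9 members were called lower with AAV-GFP-MBNL1∆, beside 34.9% of all genes tested then in either direction. Without AAV-GFP-MBNL1∆ replicate 1 or 3 no member was called by edgeR in this comparison, where with all libraries 6 were lower at an unadjusted p under 0.05, as were 22.7% of all tested genes. DESeq2 called 5 members and 30.6% of all genes between the vectors, and limma-voom 1 member and 16.9% of all genes. In the comparison of AAV-GFP-MBNL1∆ with saline, 6 members were called without AAV-GFP replicate 2 (beside 21.7% of all genes tested then) and 6 without AAV-GFP replicate 3 (beside 12% of them), libraries that enter that test through the shared estimate of spread. Leaving out any 1 of the AAV-GFP-MBNL1∆ or saline libraries left no member called, beside 2.63% to 4.32% of all genes. With all libraries, 7 members were higher at an unadjusted p under 0.05 there, as were 13.1% of all tested genes. DESeq2 called 7 members and 15.6% of all genes there, and limma-voom 0 members and 8.46% of all genes.

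**Figure D3:**
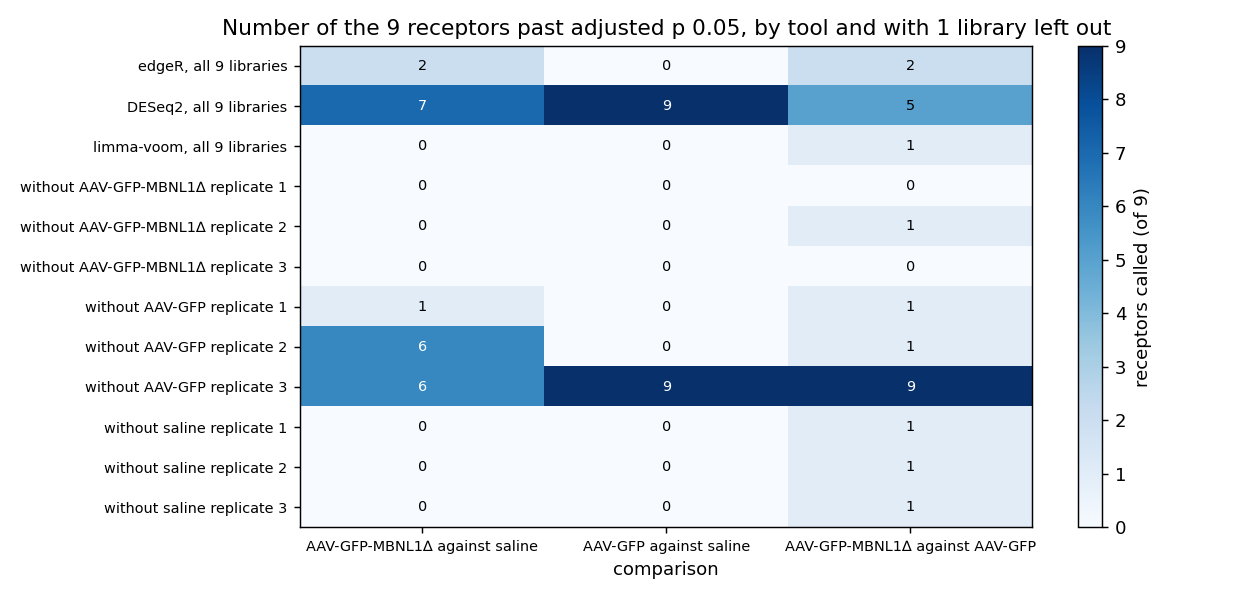
Number of the 9 receptors with an adjusted p under 0.05 in each comparison (columns), for 3 tools on all 9 libraries and for edgeR with 1 library left out (rows). AAV-GFP against saline has 9 calls with DESeq2 and without AAV-GFP replicate 3, and 0 in every other row shown.

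Levels were compared between genes per kilobase of merged exon, a length that joins all annotated transcripts and may exceed that of the transcript made. It ran from 1281 bases for Klrd1 to 7183 bases for Klrk1. The order, the shares and the ratio to CD3 below depend on it. With AAV-GFP-MBNL1∆, Klrd1 was highest at 0.714 ± 0.361 CPM per kb, followed by Ncr1 at 0.564 ± 0.228 CPM per kb, whose range overlapped that of Klrd1 and lay clear of Klrc1 at 0.195 ± 0.0431 CPM per kb. The remaining members followed in the order Klrk1, Cd244, Klre1, Klrb1c, Klrc2 and Klrg1 down to 0.0313 ± 0.0204 CPM per kb, each overlapping its neighbour. With AAV-GFP, Klrd1 was at 2.72 ± 2.95 and Ncr1 at 2.45 ± 2.21 CPM per kb, and Klrk1, Klrc1, Cd244, Klrg1, Klre1, Klrb1c and Klrc2 followed down to 0.0964 ± 0.103 CPM per kb, with overlap at every step. In saline muscle Klrd1 led at 0.12 ± 0.024 CPM per kb, clear of Klrg1 at 0.058 ± 0.0264 CPM per kb, which overlapped Ncr1 at 0.0456 ± 0.0278 CPM per kb, and Klrc2 was last with no read.

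As a share of the summed CPM per kb of the 9 genes within a library, Klrg1 took 0.442% to 3.29% with AAV-GFP-MBNL1∆, 5.16% to 8.28% with AAV-GFP and 10.7% to 27.7% with saline, with no overlap between any 2 groups. Klrk1 took 6.01% to 7.75% with AAV-GFP-MBNL1∆, 8.51% to 13% with AAV-GFP and 4.51% to 4.9% with saline, and these ranges were also separate. Klrc1 took 7.69% to 16.4% with AAV-GFP-MBNL1∆, 7.17% to 7.31% with AAV-GFP and 0% to 2.04% with saline. Klrc2 took 1.33% to 2.1% with AAV-GFP-MBNL1∆, 0.447% to 1.25% with AAV-GFP and 0% with saline, and Klrc1 and Klrc2 thus also had separate ranges in the 3 groups. Of the others, Ncr1 overlapped between the vector groups, with 28.4% to 31.2% with AAV-GFP-MBNL1∆ and 27.8% to 41.4% with AAV-GFP. The saline shares rest on 40 to 54 reads a library over all 9 genes. With AAV-GFP-MBNL1∆ the Klrg1 shares rest on 1, 4 and 3 reads. Klrc2 held 2 reads in AAV-GFP replicate 3 and 5 in AAV-GFP-MBNL1∆ replicate 3. Such separations may be counting error, and how often shares of other genes separate the groups was not examined. No test was made on shares.

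**Figure D4:**
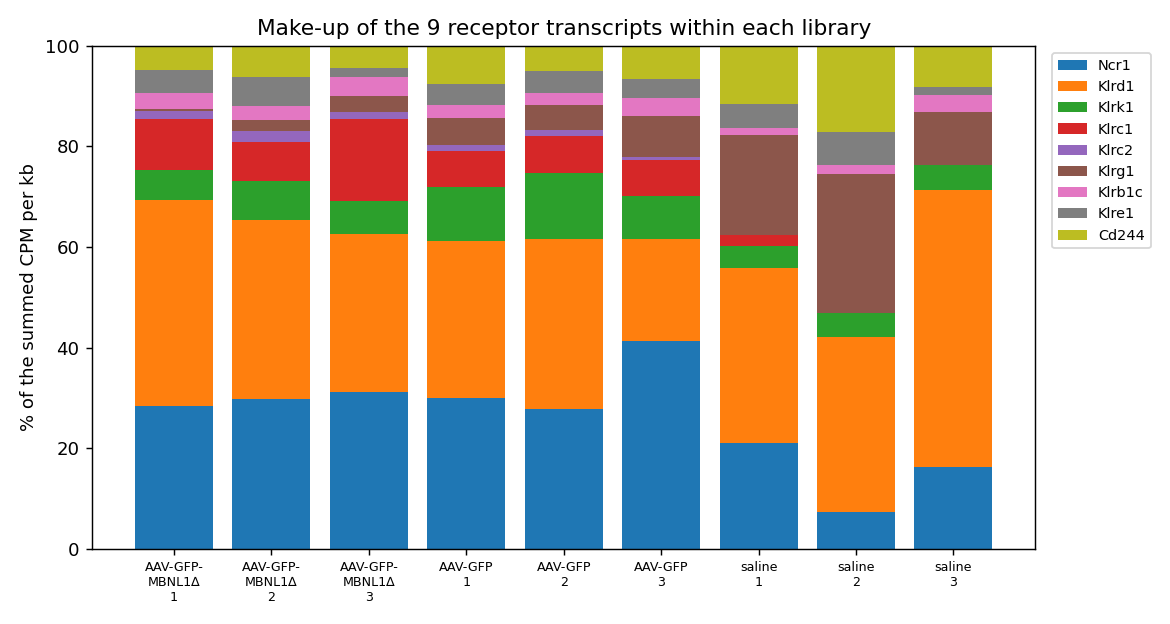
Share (%) of each receptor in the summed CPM per kb of the 9 genes, for each library. The Klrg1 band is narrowest in the 3 AAV-GFP-MBNL1∆ libraries (0.442% to 3.29%) and widest in saline (10.7% to 27.7%), where Klrc1 and Klrc2 are nearly or wholly missing.

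The AAV-GFP libraries differed from each other for every member. Replicate 2 held 2.03 times (Cd244) to 3.8 times (Klrk1) the level of replicate 1, and 6.51 times (Klrg1) to 27.6 times (Klrc2) the level of replicate 3. The T cell receptor complex genes Cd3d, Cd3e and Cd3g varied with them: their summed CPM was 3.88, 4.54 and 1.77 with AAV-GFP-MBNL1∆, 10.6, 28.3 and 1.81 with AAV-GFP, and 0.289, 0.136 and 0.208 with saline. The ratio of the receptor sum to the CD3 sum, both per kb, was 1.73 to 2 with AAV-GFP-MBNL1∆, 1.76 to 3.1 with AAV-GFP and 3.82 to 6.09 with saline, the last on 9 to 20 CD3 reads a library. Receptor and CD3 transcripts were both lower in AAV-GFP-MBNL1∆ replicate 3 than in its 2 companions. The part of T cells in the receptor levels was not tested.

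**Figure D5:**
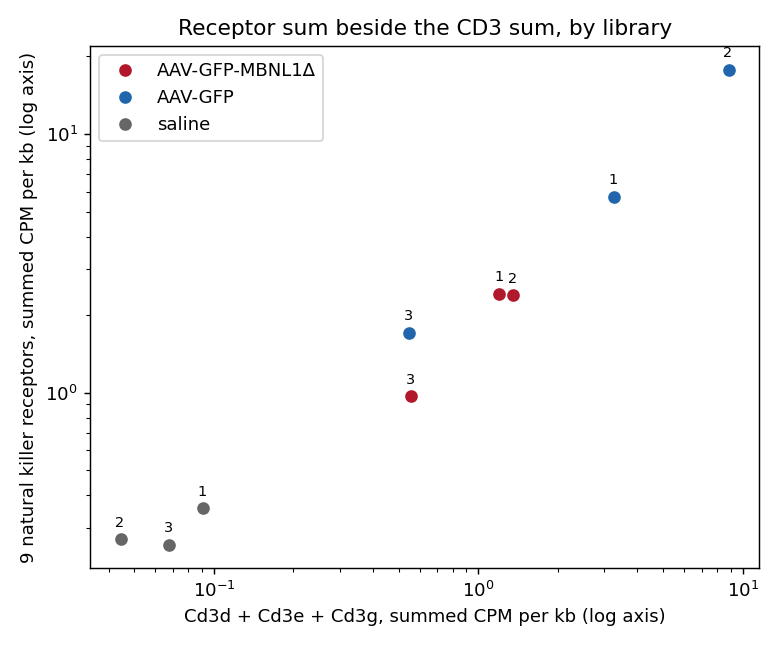
Summed CPM per kb of the 9 natural killer receptors against that of Cd3d, Cd3e and Cd3g, 1 point per library with its replicate number, both axes log. The 3 saline libraries lie lowest on both axes, AAV-GFP replicate 2 is highest on both, and AAV-GFP replicate 3 lies within the AAV-GFP-MBNL1∆ range for the receptors and just below it for CD3.

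The genes with profiles most like the mean of the 9 members were sought among 12658 protein-coding genes, by the root-mean-square difference of centred log2(CPM + 0.1) over the 9 libraries. The 6 nearest were Grap2 (0.11), Acap1 (0.12), Slain1 (0.13), Ikzf1 (0.15), Ptpn7 (0.15) and Selplg (0.15), where the median gene was at 1.45. With a pseudocount of 0.5 in place of 0.1, 1 of these 6 stayed among the nearest 6. Of the members themselves, Klre1 was nearest to the mean at 0.26, and Klrg1 (0.84), Klrk1 (0.66) and Ncr1 (0.54) were farthest. The single nearest gene was Il18rap for Ncr1 (0.20), Rasal3 for Klrd1 (0.20), Aoah for Klrk1 (0.20), Sash3 for Klrc1 (0.26) and Dnase1l3 for Klrc2 (0.21). It was Ulbp1 for Klrg1 (0.26), Kmo for Klrb1c (0.17), Bcl11a for Klre1 (0.23) and Ly75 for Cd244 (0.22). These single nearest genes rest on the pseudocount of 0.1 alone, which exceeds the saline levels of several members. Kmo was at 0.375 to 0.52 CPM with saline, against 0.0144 to 0.026 CPM for Klrb1c.

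Other lectin-like genes of the same complex were detected less evenly. Of 20 listed, 12 were tested, and Klra9 and Klra10, of the Ly49 family of MHC class I receptors, fell in AAV-GFP-MBNL1∆ muscles relative to saline, where 4.6% of all tested genes were called lower. Klra10 was at 0.24, 0.2 and 0.135 CPM with AAV-GFP-MBNL1∆, 0.43, 0.336 and 0.642 CPM with AAV-GFP and 0.447, 0.575 and 0.533 CPM with saline. Its log2 fold change was -1.43 ± 0.32 against saline (edgeR adjusted p 0.0289) and -1.26 ± 0.33 against AAV-GFP (adjusted p 0.031), and Klra1 was also called lower against AAV-GFP (-2.02 ± 0.58, adjusted p 0.0405). Between the vectors, 10.3% of all tested genes were called lower. Klri2, a partner of Klre1, was at 0.346, 0.309 and 0.0749 CPM with AAV-GFP-MBNL1∆, 0.504, 1.41 and 0.199 CPM with AAV-GFP and 0.0289, 0.0303 and 0 CPM with saline, and did not pass in any comparison. Cd69, an early activation antigen, and Klrb1f did not pass either, with log2 fold changes of 2.57 and 3.94 for AAV-GFP-MBNL1∆ against saline. The list's median log2 fold change was 0.74 for AAV-GFP-MBNL1∆ against saline, 2.69 for AAV-GFP against saline and -1.80 between the vectors. Ly49 genes are near-identical and differ in number between mouse strains, so reads of FVB muscle on a C57BL/6 genome may be assigned to the wrong copy or left out, which also touches Klrc1 and Klrc2 and was not tested.

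Downstream of the receptors, 14 of 16 listed adaptors and kinases were tested. With AAV-GFP-MBNL1∆, 1 was called higher against saline and 1 lower against AAV-GFP, beside 4.76% and 10.3% of all tested genes. Lck, the kinase that starts signalling in T cells and also acts in natural killer cells, rose to 2.36, 2.8 and 1.27 CPM in AAV-GFP-MBNL1∆ muscles, against 0.144, 0.106 and 0.156 CPM in saline muscles, a log2 fold change of 3.96 ± 0.89 (edgeR adjusted p 0.0311). Fyn fell by 0.81 ± 0.23 on the log2 scale with AAV-GFP-MBNL1∆ relative to AAV-GFP (adjusted p 0.0416), at 17.2 to 19.6 CPM against 22.1 to 46.1 CPM. Sh2d1a, the adaptor that sets the sign of Cd244 signalling, was at 0.21, 0.364 and 0.165 CPM with AAV-GFP-MBNL1∆, 0.949, 1.73 and 0.111 CPM with AAV-GFP and had no read with saline, and did not pass the test (adjusted p 0.0787 for AAV-GFP-MBNL1∆ against saline). Tyrobp and Fcer1g, adaptors of activating receptors that myeloid cells also make, had log2 fold changes of 1.28 ± 0.76 and 0.85 ± 0.70 against saline with AAV-GFP-MBNL1∆, short of the threshold. The list's median was 1.36 for AAV-GFP-MBNL1∆ against saline, 3.21 for AAV-GFP against saline and -1.81 between the vectors.

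On the ligand side, 19 of 23 listed genes were among those counted, and 15 were tested. Raet1d, H60b, H60c and Clec2f had no read in any library. With AAV-GFP-MBNL1∆, 1 was called higher against saline and 4 lower against AAV-GFP, beside 4.76% and 10.3% of all tested genes. Clec2d, the ligand of an inhibitory Klrb1 receptor, rose to 36.2, 46.3 and 31 CPM in AAV-GFP-MBNL1∆ muscles, against 22.5, 22.4 and 21.5 CPM in saline muscles (log2 fold change 0.77 ± 0.18, edgeR adjusted p 0.0302). H2-T23, H2-K1, H2-D1 and Ulbp1 fell with AAV-GFP-MBNL1∆ relative to AAV-GFP. H2-T23, the ligand of Klrc1 with Klrd1, was at 6.46, 7.38 and 4.85 CPM with AAV-GFP-MBNL1∆, 21.6, 66.1 and 9.71 CPM with AAV-GFP and 4.96, 5.46 and 5.91 CPM with saline, and its log2 fold change between the vectors was -2.39 ± 0.60 (adjusted p 0.0309). Ulbp1, a ligand of Klrk1, was at 0.421, 0.527 and 0.344 CPM with AAV-GFP-MBNL1∆, 1.44, 4.37 and 0.73 CPM with AAV-GFP and 0.505, 0.378 and 0.416 CPM with saline (log2 fold change between the vectors -2.35 ± 0.59, adjusted p 0.0289). As for Klrg1, the AAV-GFP-MBNL1∆ and saline ranges of Ulbp1 overlapped and the AAV-GFP range lay above both. The same held for H2-T23, H2-K1 and H2-D1. Cd48, the ligand of Cd244, did not pass, with log2 fold changes of 1.21 against saline and -2.13 against AAV-GFP. Raet1e, another Klrk1 ligand, had log2 fold changes of -0.04 and 0.10 in those comparisons. The cadherins Cdh1, Cdh2 and Cdh4, ligands of Klrg1, had -0.59, -0.30 and -0.26 between the vectors. Cdh4 was the most abundant of them, with a mean of 30.6 CPM in saline muscles. Its log2 fold change against saline was -1.05 with AAV-GFP-MBNL1∆ (edgeR adjusted p 0.0911) and -0.78 with AAV-GFP (adjusted p 0.22). The list's median was 0.19 for AAV-GFP-MBNL1∆ against saline, 0.76 for AAV-GFP against saline and -0.59 between the vectors.

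Among 19 tested other receptors of natural killer and cytotoxic T cells, Il2rb, Cd27 and Cd7 rose and Il15ra and Itga2 fell in AAV-GFP-MBNL1∆ muscles relative to saline. Of all tested genes, 4.76% were called higher and 4.6% lower there. Il2rb, the receptor chain for interleukins 2 and 15, was at 3.61, 3.34 and 1.54 CPM with AAV-GFP-MBNL1∆, 8.36, 25.9 and 2.01 CPM with AAV-GFP and 0.217, 0.0606 and 0.078 CPM with saline (log2 fold change 4.56 ± 1.03, edgeR adjusted p 0.0314). Slamf7, Fcgr4, Il15ra, Itga2 and Cd7 fell with AAV-GFP-MBNL1∆ relative to AAV-GFP, where 10.3% of all tested genes were called lower. The integrin Itga2 (CD49b), used to mark mouse natural killer cells but also made by platelets and stromal cells, was at 1.91, 1.36 and 1.3 CPM with AAV-GFP-MBNL1∆, 4.03, 3.7 and 2.99 CPM with AAV-GFP and 3.91, 3.65 and 2.87 CPM with saline. Its log2 fold change was -1.19 ± 0.21 against saline (adjusted p 0.0109), opposite in sign to that of Ncr1. In the comparison with saline, limma-voom made 0 calls of higher genes in this list, and likewise 0 in the lists that hold Lck, Ikzf3, Nkg7, the T cell markers and Jchain. The list's median was 2.22 for AAV-GFP-MBNL1∆ against saline, 4.13 for AAV-GFP against saline and -2.10 between the vectors.

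All 10 listed transcription factors were tested. With AAV-GFP-MBNL1∆, 1 was called higher against saline and 4 lower against AAV-GFP, beside 4.76% and 10.3% of all tested genes. Ikzf3 (Aiolos) rose in AAV-GFP-MBNL1∆ muscles relative to saline, at 2.03, 2.89 and 0.779 CPM against 0.0866, 0.0606 and 0.13 CPM (log2 fold change 4.31 ± 1.11, edgeR adjusted p 0.0476). Eomes, the T-box factor of natural killer cells, was at 0.737, 0.836 and 0.299 CPM with AAV-GFP-MBNL1∆, 1.72, 5.34 and 0.332 CPM with AAV-GFP and 0.0289, 0 and 0.026 CPM with saline, and missed the threshold against saline (adjusted p 0.0503). Id2, Zeb2, Prdm1 and Ets1 fell with AAV-GFP-MBNL1∆ relative to AAV-GFP, with log2 fold changes of -1.78, -0.95, -2.12 and -0.55. Runx3 did not pass, with 2.09 ± 0.74 for AAV-GFP-MBNL1∆ against saline. The list's median was 0.52 for AAV-GFP-MBNL1∆ against saline, 1.83 for AAV-GFP against saline and -1.72 between the vectors.

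Markers of natural killer cells moved unevenly. Of 9 listed, which include the members Ncr1 and Klrb1c, Ncr1 and the granule gene Nkg7 rose and Itga2 fell with AAV-GFP-MBNL1∆ relative to saline, and Itga2, Gzma (granzyme A) and Cma1 (a chymase known also from mast cells) fell relative to AAV-GFP. Of all tested genes, 4.76% were called higher and 4.6% lower against saline, and 10.3% lower against AAV-GFP. Nkg7 was at 1.31, 1.45 and 0.479 CPM with AAV-GFP-MBNL1∆, 3.22, 11.2 and 0.686 CPM with AAV-GFP and 0.0433, 0.0151 and 0 CPM with saline. The list summed to 5.36 to 8.34 CPM with AAV-GFP-MBNL1∆, 9.14 to 49.1 CPM with AAV-GFP and 5.68 to 7.88 CPM with saline, a sum in which Itga2 and Cma1 hold most of the saline level. Defining genes of the killing machinery were low, with Prf1 (perforin) at 0.586, 0.873 and 0.255 CPM with AAV-GFP-MBNL1∆, 2.49, 12 and 0.62 CPM with AAV-GFP and 0.0289, 0.0908 and 0.013 CPM with saline, with no call.

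Markers of other immune cells moved in the same libraries. With AAV-GFP-MBNL1∆, 4.76% of all tested genes were called higher against saline and 10.3% lower against AAV-GFP. Of 9 T cell markers, Cd3e, Cd8b1 and Cd6 rose with AAV-GFP-MBNL1∆ relative to saline and Thy1 fell relative to AAV-GFP, and the list summed to 19.4 to 26.9 CPM with AAV-GFP-MBNL1∆, 23.4 to 94.5 CPM with AAV-GFP and 16.7 to 21.3 CPM with saline. Cd8a had no read in saline, and Thy1, which other tissue cells also make, was at 16.3 to 20.7 CPM there. Of 6 tested B and plasma cell markers, Jchain, the joining chain of secreted antibodies, rose with AAV-GFP-MBNL1∆ relative to saline. The list summed to 31.3 to 95.8 CPM with AAV-GFP-MBNL1∆, 3.14 to 906 CPM with AAV-GFP and 0.333 to 1.07 CPM with saline. Jchain held most of this sum with the vectors, at 29.5 to 90.6 CPM with AAV-GFP-MBNL1∆ and 2.08 to 870 CPM with AAV-GFP. Mzb1 was at 0 in all groups, as was Itgam, an integrin in the list of other receptors. Whether reads of these genes were lost in counting was not tested. The 7 monocyte and macrophage markers summed to 173 to 251 CPM with AAV-GFP-MBNL1∆, 200 to 1619 CPM with AAV-GFP and 96.2 to 120 CPM with saline. None of them was called by edgeR or limma-voom in any comparison. With AAV-GFP against saline, all 7 were higher at an unadjusted edgeR p under 0.05, beside 15.6% of all tested genes. All 7 also had a DESeq2 call there, beside 9.21% of all genes. With AAV-GFP-MBNL1∆ against saline, 0 had either. Between the vectors, 6 were lower at an unadjusted p under 0.05, beside 22.7% of all genes, and 6 had a DESeq2 call, beside 30.6%.

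Among markers of innate lymphoid cells types 2 and 3, Gata3, Il1rl1 and Kit fell with AAV-GFP-MBNL1∆ relative to AAV-GFP. In that comparison 10.3% of all tested genes were called lower. Of 8 muscle fibre genes, Acta1 and Tnni2 rose with AAV-GFP-MBNL1∆ relative to AAV-GFP, where 10.8% of all tested genes were called higher. The part of each of these cell types in the receptor results was not tested.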

How the data were processed

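The deposited files hold raw read counts per gene, 1 table for each of the 9 libraries, and are whole-number counts made by the authors with no normalization. Trizol RNA was cleared of DNA, and 250 ng of it went into a KAPA mRNA library preparation, per the labels' protocols. The submitters' processing notes name cutadapt 2.10, STAR 2.7.5a, HTSeq 0.12.4 and DESeq2 1.30.0, with mm10. No source used here gives the annotation release or strand setting, so reads of overlapping genes on opposite strands may be mixed. The 5 rows that name no gene held 16.8% to 18.3% of counts and were left out.

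All 9 libraries entered 1 fit in edgeR 4.0.16 under R 4.3.3, with TMM scaling, filterByExpr, a robust quasi-likelihood F test and 1 mean per group, which left 6 residual degrees of freedom. Benjamini-Hochberg adjustment ran over 18514 tested genes within each comparison, and an adjusted p under 0.05 is a call. A standard error is the log2 fold change divided by the square root of F. CPM uses TMM-adjusted library sizes, and CPM per kb divides it by the merged exon length. Intervals and floors cover counting error only. The procedure was tested on data simulated with the same spread in every library and no deviating library. That test does not cover differences as large as those among the AAV-GFP libraries.

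The members and the other 11 lists were chosen with earlier results of these data known, so no test was made over a list. The text names all 9 members, up to 4 genes of a list by smallest p-value against saline, the genes of any count of 5 or fewer, and the genes nearest in profile, among those with a mean of at least 0.5 CPM. Prf1, Tyrobp, Fcer1g, Raet1e, Cdh1, Cdh2 and Cdh4 fall outside this rule and were chosen after their values were seen, as were genes named for having no read. Alternatives were other scalings, filters and tools (DESeq2 1.42.0, limma 3.58.1), a replicate block and leaving out each library. Protein sequences were not used here, and 1 listed marker is not reported here.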

Additional observations from a re-analysis of the deposited data

How the results depend on the processing

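No member changed direction in any comparison under any alternative tried. DESeq2 size factors and upper-quartile scaling gave the same number of calls, 2 of 9 for AAV-GFP-MBNL1∆ against saline, 0 for AAV-GFP against saline and 2 for AAV-GFP-MBNL1∆ against AAV-GFP. For AAV-GFP-MBNL1∆ against saline the number called was 1 with no filter (4.43% of all genes called), 1 with at least 1 CPM in 3 libraries (3 members tested, 12.8%), 7 with DESeq2 (15.6%), 0 with limma-voom (8.46%), 5 with only the 2 groups compared (5 members tested, 25.7%) and 4 with limma-voom and a quality weight per library (29.5%). The quality weights, and the ratios of Klrc1 and Klrc2 without a vector library, were chosen after seeing the data. For AAV-GFP against saline it was 9 with DESeq2 (9.21%) and 9 with quality weights (29.5%). For AAV-GFP-MBNL1∆ against AAV-GFP it was 1 with no filter (8.97%), 5 with DESeq2 (30.6%), 1 with limma-voom (16.9%), 0 with only the 2 groups compared (6.46%) and 8 with quality weights (50.2%). Leaving out 1 library gave 0 to 6 calls for AAV-GFP-MBNL1∆ against saline, 0 to 9 for AAV-GFP against saline and 0 to 9 for AAV-GFP-MBNL1∆ against AAV-GFP. The cause of these changes was not tested. Over all settings, the adjusted p of Klrg1 between the vectors ran from 0.000368 to 0.075, that of Klrk1 from 0.00094 to 0.147, and against saline with AAV-GFP-MBNL1∆ that of Ncr1 from 4.92e-05 to 0.153 and that of Klrc1 from 0.000237 to 0.11. Of the 6 genes nearest in profile, 1 was shared when the pseudocount was 0.5.

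The groups share replicate numbers, and the sources used here do not say whether these pair the libraries. Deviations of same-numbered libraries had correlations of -0.0824 to 0.0728 in pairs with saline. Between AAV-GFP and AAV-GFP-MBNL1∆ they were 0.0728, 0.168 and 0.446. Differently numbered pairs ran from -0.435 to 0.278. These values do not decide the question, and the main fit did not pair the libraries. With the replicate block as a term, 5 members were called for AAV-GFP-MBNL1∆ against saline (7.63% of all genes), 6 for AAV-GFP against saline (0.535%) and 5 for AAV-GFP-MBNL1∆ against AAV-GFP (15.3%).

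Depth limits the low members most: Klrg1 rests on 8 reads over the AAV-GFP-MBNL1∆ group, Klrb1c on 4 and Klrc1 on 1 over the saline group.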

Other observations

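Of 4 genes beside the receptors, Cd27 and Clec2d were not lower with AAV-GFP-MBNL1∆ than with AAV-GFP, while Klra2 and Klrc3 had lower means. Cd27, a co-stimulatory receptor of lymphocytes, was at 3.52, 3.05 and 2.08 CPM with AAV-GFP-MBNL1∆, 1.87, 4.82 and 0.376 CPM with AAV-GFP and 0.115, 0.212 and 0.143 CPM with saline. Its log2 fold change was 4.19 ± 0.83 for AAV-GFP-MBNL1∆ against saline (edgeR adjusted p 0.0206) and 0.28 ± 0.68 between the vectors (adjusted p 0.788), and the vector groups overlapped. Clec2d had a log2 fold change of 0.38 ± 0.18 between the vectors (adjusted p 0.143). Klra2, of the Ly49 family, was at 0.436, 0.4 and 0.105 CPM with AAV-GFP-MBNL1∆, 2.5, 9.57 and 0.199 CPM with AAV-GFP and 0.0866, 0.0151 and 0.065 CPM with saline, with no call. Its log2 fold change between the vectors was -3.72 ± 1.15 (edgeR adjusted p 0.053). Klrc3, a neighbour of Klrc1 and Klrc2, was below the filter for testing, at 0 to 0.0364 CPM with AAV-GFP-MBNL1∆, 0.0221 to 0.112 CPM with AAV-GFP and no read with saline. Cd27, Clec2d, Klra2 and Klrc3 were chosen for this paragraph after their values were seen.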
